A study of Mus musculus with 14 samples.

Results

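The CD28 family and the costimulatory molecules related to it are described here as 7 genes, namely Cd28, Icos, Ctla4, Pdcd1, Btla, Cd200 and Cd274. They were taken by symbol from a table of 27179 genes, and all 7 had enough counts to be tested among 13075 genes. The libraries are bulk RNA of sorted CD4 T cells from C57BL/6 mice. Isolated naive cells were cultured for 3.5 days and activated by CD3 and CD28 antibodies bound to the plate, so an antibody to the product of one of the 7 genes was part of every culture. Tfh5 (5 libraries) denotes culture toward follicular helper T cells with 5 ng/ml TGF-β. TfhA (4 libraries, replicates 1, 2, 4 and 5) denotes the same kind of culture with an antibody against TGF-β, and Th1 (5 libraries) denotes Th1 culture. All are populations made in culture. No label tells if the libraries of a group stem from different mice, and the p-values therefore measure the spread between these samples only.

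Activated T cells need a costimulatory signal beside that of their antigen receptor, and CD28 gives it when it binds CD80 or CD86 on another cell. ICOS is a relative of CD28 that appears after activation and is required for follicular helper cells, while CTLA-4 takes the same ligands as CD28 and restrains the response. PD-1 (Pdcd1) and BTLA are inhibitory receptors of the same superfamily. PD-L1 (Cd274) is a ligand of PD-1, and CD200 is a surface glycoprotein whose receptor restrains myeloid cells. High PD-1, ICOS, BTLA and CD200 are commonly used to recognise follicular helper cells.

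Levels are CPM (counts relative to the library total, scaled between libraries by the TMM method), and errors are SD over libraries unless given as SE. Library totals ran from 8805921 to 16108059 counts. Correlations of log2 CPM between libraries were 0.970 to 0.991 within groups and 0.834 to 0.943 between groups. The T cell genes Cd3d, Cd3e, Cd3g, Cd247, Cd4, Cd2, Cd5, Cd6 and Thy1 together reached 5039 to 5675 CPM in Tfh5, 4177 to 4879 CPM in TfhA and 4002 to 4690 CPM in Th1. In bulk RNA, fewer cells of a type and less RNA per cell cannot be told apart.

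Every member differed between follicular helper culture with TGF-β and with its blockade. In Tfh5 relative to TfhA the 7 members split by direction: Cd28, Ctla4 and Pdcd1 rose, and Icos, Btla, Cd200 and Cd274 fell. No library of one group overlapped the other for any of the 7. These counts stand against a large background, since 57.5% of all tested genes passed an adjusted p under 0.05 (27.4% higher and 30.1% lower in Tfh5) and 44.2% did not overlap between the groups. In TfhA relative to Th1, 4 of the 7 passed, with Cd274 higher and Icos, Ctla4 and Cd200 lower, and the same 4 did not overlap. Over all genes 44.8% passed there (23.2% higher and 21.6% lower) and 38.1% did not overlap. In Tfh5 relative to Th1, 6 of the 7 passed, with Cd28 and Pdcd1 higher and Icos, Btla, Cd200 and Cd274 lower, and the same 6 did not overlap. The background in that comparison was 64.6% passed (31.5% higher and 33.0% lower) and 50.2% without overlap. With 7 genes and such backgrounds the counts alone say little, and the results below concern the direction and size of each gene. Over all tested genes the median absolute log2 fold change was 0.49 in Tfh5 relative to TfhA (90th percentile 1.89). It was 0.35 in TfhA relative to Th1 (90th percentile 1.34) and 0.54 in Tfh5 relative to Th1 (90th percentile 2.32). The 3 comparisons share libraries with each other and are not independent.

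**Figure D1:**
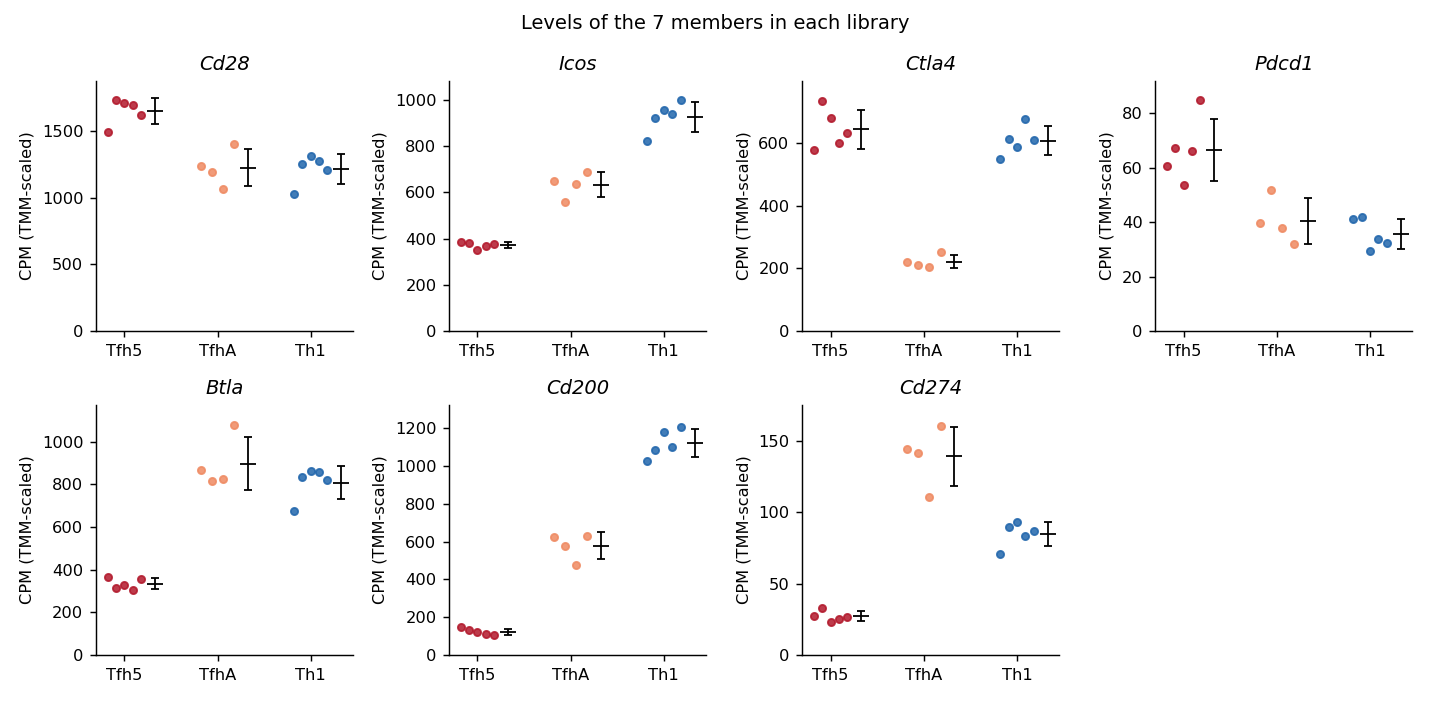
Each panel plots 1 member, with CPM (linear, from 0) on the y axis and the groups Tfh5, TfhA and Th1 on the x axis; points are libraries, and the bar beside them is the mean ± SD. Cd200 and Icos were lowest in Tfh5 and highest in Th1, Cd274 was highest in TfhA, and Ctla4 was low in TfhA alone, at 204 to 251 CPM.

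Of the 7 members, 5 have an entry in the RefSeq promoter table of build GRCm38.p6, and Cd28 and Icos have none there. Each window holds 250 bases before and 50 bases after the annotated start. Of 12 short motifs searched on both strands, the IRF motif GAAANNGAA (N is any base), bound by interferon regulatory factors, was the rarest with a match in any member: it lies in 8.53% of 32534 distinct promoters of the same length, and in those of Cd274, Ctla4 and Btla. These 3 windows are printed because they share that motif while their genes differed in pattern across the groups, and Cd274 is known to be induced by interferons. The motif was picked from the 12 after the matches were seen, so its share among the members is not a test of enrichment. Capitals mark the match, which in Cd274 and Ctla4 is on the opposite strand, so that the letters printed are its reverse complement. The match begins 76 bases before the start site in Cd274, 166 before it in Ctla4 and 210 before it in Btla. The windows lie at chr19:29367188-29367487 (plus strand), chr1:60908775-60909074 (plus strand) and chr16:45224087-45224386 (plus strand), for Cd274, Ctla4 and Btla in this order. The start used for Cd274 and Btla lies downstream of the first base of the gene's annotated range, and other starts of these genes were not searched.
Cd274: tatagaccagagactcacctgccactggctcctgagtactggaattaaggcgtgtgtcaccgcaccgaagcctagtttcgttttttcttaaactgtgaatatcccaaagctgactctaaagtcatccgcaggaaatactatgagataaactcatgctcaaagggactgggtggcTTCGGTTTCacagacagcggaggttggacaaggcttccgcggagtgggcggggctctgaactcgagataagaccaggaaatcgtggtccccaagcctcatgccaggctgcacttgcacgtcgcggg
Ctla4: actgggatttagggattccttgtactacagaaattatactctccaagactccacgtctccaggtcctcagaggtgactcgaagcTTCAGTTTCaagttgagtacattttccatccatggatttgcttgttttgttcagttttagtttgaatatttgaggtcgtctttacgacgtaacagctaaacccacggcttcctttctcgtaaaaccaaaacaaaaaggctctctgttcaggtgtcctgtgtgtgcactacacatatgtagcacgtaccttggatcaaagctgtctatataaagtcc
Btla: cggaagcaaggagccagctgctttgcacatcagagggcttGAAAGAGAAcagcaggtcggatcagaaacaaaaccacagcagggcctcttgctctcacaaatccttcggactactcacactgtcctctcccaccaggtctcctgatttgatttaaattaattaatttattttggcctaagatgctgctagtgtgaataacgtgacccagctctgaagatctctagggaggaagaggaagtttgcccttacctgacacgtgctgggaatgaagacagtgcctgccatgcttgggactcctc

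No window of the 5 held a match to the AP-1 motif TGANTCA (7.79% of promoters), the STAT motif TTCNNNGAA (8.33%), the MAF recognition element core TGCTGA (19.5%), the T-box motif AGGTGTNA (3.04%) or the cyclic AMP response element TGACGTCA (1.80%). The NFAT core GGAAA (61.5% of promoters) and the SMAD box CAGAC (49.5%) each lay in 3 of the 5 windows: NFAT in Ctla4, Pdcd1 and Cd274, and SMAD in Pdcd1, Cd200 and Cd274. The ROR motif AGGTCA (16.3%) was held by Pdcd1 alone among the 5, and the TATAAA box (13.6%) by Ctla4 alone, after its annotated start. The GC box GGGCGG (35.9%) lay in Pdcd1, Cd200 and Cd274, and the E-box CANNTG (72.3%) in Ctla4, Btla, Cd200 and Cd274. A match is a match of letters only, and the absence of one concerns only these windows.

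The 2 activating receptors moved in opposite directions under TGF-β. Cd28 (Entrez gene 12487, mm10 chromosome 1, 60746388 to 60773359, plus strand) had 1490, 1732, 1713, 1693 and 1623 CPM in Tfh5, against 1239, 1196, 1064 and 1401 CPM in TfhA and 1030, 1250, 1316, 1275 and 1204 CPM in Th1. Every Tfh5 library exceeded every library of both other groups, and TfhA and Th1 overlapped. Cd28 rose 1.35-fold in Tfh5 relative to TfhA (log2 fold change 0.43 ± 0.10 SE, edgeR adjusted p = 0.000483) and 1.36-fold relative to Th1 (0.44 ± 0.09 SE, adjusted p = 0.000146). Both rises were smaller than the median absolute log2 fold change over all tested genes (0.49 and 0.54 in the same order). Between TfhA and Th1 the log2 fold change of Cd28 was 0.01 ± 0.10 SE (95% interval -0.19 to 0.21, edgeR adjusted p = 0.931).

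Icos (Entrez gene 54167, chromosome 1, 60960773 to 61000322, plus strand) had 384, 382, 352, 369 and 376 CPM in Tfh5, against 651, 558, 637 and 687 CPM in TfhA and 820, 924, 955, 937 and 998 CPM in Th1. The 3 groups formed 3 separate levels with no overlap, lowest in Tfh5 and highest in Th1. Icos fell 1.70-fold in Tfh5 relative to TfhA (log2 fold change -0.76 ± 0.09 SE, edgeR adjusted p = 3.55e-08) and 2.49-fold relative to Th1 (-1.31 ± 0.08 SE, adjusted p = 5.01e-13). It also fell 1.46-fold in TfhA relative to Th1 (-0.55 ± 0.09 SE, adjusted p = 1.34e-05). The transcript of the receptor that follicular helper cells require was thus lower in both follicular helper cultures than in Th1 culture at this time.

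Among the inhibitory receptors, Ctla4 and Pdcd1 rose in Tfh5 relative to TfhA and Btla fell. Ctla4 (Entrez gene 12477, chromosome 1, 60909025 to 60915832, plus strand) had 578, 732, 677, 599 and 630 CPM in Tfh5, against 220, 211, 204 and 251 CPM in TfhA and 549, 612, 587, 677 and 607 CPM in Th1. The ranges of Tfh5 and Th1 overlapped, and all 4 TfhA libraries lay under both. Ctla4 rose 2.90-fold in Tfh5 relative to TfhA (log2 fold change 1.54 ± 0.10 SE, edgeR adjusted p = 1.19e-12), and it fell 2.74-fold in TfhA relative to Th1 (-1.45 ± 0.10 SE, adjusted p = 9.67e-12). Between Tfh5 and Th1 the log2 fold change was 0.08 ± 0.09 SE, with a 95% interval of -0.10 to 0.27 (adjusted p = 0.409). Ctla4 is also high in regulatory T cells, whose defining factor Foxp3 had 4.19 ± 1.51 CPM in Tfh5, 2.24 ± 1.21 CPM in TfhA and 2.43 ± 1.48 CPM in Th1, and did not pass in any of the 3 comparisons (adjusted p = 0.0819, 0.834 and 0.0926 for Tfh5 with TfhA, TfhA with Th1 and Tfh5 with Th1). The 6 regulatory T cell markers, Foxp3 included, summed to 92.6 to 125 CPM in Tfh5, 187 to 229 CPM in TfhA and 149 to 175 CPM in Th1. In Tfh5 relative to TfhA, where Ctla4 rose, Ikzf4 rose, Ikzf2, Lrrc32, Gpr83 and Nrp1 fell, and Foxp3 did not pass. The part of regulatory T cells in the Ctla4 result was not tested.

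Pdcd1 (Entrez gene 18566, chromosome 1, 94038305 to 94052553, minus strand) was a low transcript in all groups. It had 60.8, 67.3, 53.7, 66.1 and 84.7 CPM in Tfh5, against 39.6, 52.0, 37.9 and 32.2 CPM in TfhA and 41.3, 42.0, 29.3, 33.8 and 32.4 CPM in Th1. All Tfh5 libraries were above all others, by a small margin over the highest TfhA library, and TfhA and Th1 overlapped. Pdcd1 rose 1.64-fold in Tfh5 relative to TfhA (log2 fold change 0.72 ± 0.14 SE, edgeR adjusted p = 0.000154) and 1.86-fold relative to Th1 (0.89 ± 0.13 SE, adjusted p = 2.81e-06). Between TfhA and Th1 it did not pass (0.18 ± 0.14 SE, adjusted p = 0.332). It was also the most variable member between libraries of a group, with a coefficient of variation of 17.3% in Tfh5, 20.7% in TfhA and 15.7% in Th1.

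Btla (Entrez gene 208154, chromosome 16, 45223705 to 45252895, plus strand) had 367, 314, 329, 304 and 354 CPM in Tfh5, against 866, 817, 825 and 1079 CPM in TfhA and 673, 832, 861, 857 and 818 CPM in Th1. Tfh5 was less than the lowest library of either other group, and TfhA and Th1 overlapped. Btla fell 2.69-fold in Tfh5 relative to TfhA (log2 fold change -1.43 ± 0.10 SE, edgeR adjusted p = 9.37e-12) and 2.42-fold relative to Th1 (-1.28 ± 0.10 SE, adjusted p = 1.88e-11). Between TfhA and Th1 it did not pass (0.15 ± 0.10 SE, adjusted p = 0.235). The inhibitory receptors therefore had 3 different patterns: Ctla4 low in TfhA, Pdcd1 high in Tfh5 and Btla low in Tfh5.

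The 2 ligand genes had the largest decreases of the 7 in Tfh5 relative to TfhA. Cd200 (Entrez gene 17470, chromosome 16, 45382111 to 45409060, minus strand) had 146, 134, 119, 110 and 108 CPM in Tfh5, against 626, 579, 477 and 631 CPM in TfhA and 1025, 1086, 1182, 1101 and 1207 CPM in Th1. As with Icos, the groups were fully separate and in the order Tfh5, TfhA, Th1 from low to high. Cd200 fell 4.69-fold in Tfh5 relative to TfhA (log2 fold change -2.23 ± 0.11 SE, edgeR adjusted p = 4.69e-15), 1.94-fold in TfhA relative to Th1 (-0.95 ± 0.10 SE, adjusted p = 6.08e-08) and 9.08-fold in Tfh5 relative to Th1 (-3.18 ± 0.11 SE, adjusted p = 1.73e-18).

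Cd274 (Entrez gene 60533, chromosome 19, 29362107 to 29388095, plus strand) had 27.5, 32.7, 23.4, 25.3 and 26.2 CPM in Tfh5, against 144, 142, 111 and 160 CPM in TfhA and 70.8, 89.5, 92.9, 83.2 and 87.0 CPM in Th1. It was the member that peaked in TfhA without overlap with either other group. Cd274 fell 5.15-fold in Tfh5 relative to TfhA (log2 fold change -2.37 ± 0.12 SE, edgeR adjusted p = 1.05e-14) and 3.13-fold relative to Th1 (-1.65 ± 0.11 SE, adjusted p = 2.52e-12). It rose 1.65-fold in TfhA relative to Th1 (0.72 ± 0.11 SE, adjusted p = 1.07e-05). In the RefSeq annotation Cd274 overlaps by position Plgrkt and the predicted gene Gm36043, and the strand setting of the counting is not given in the labels. Plgrkt had 54.7 ± 4.63 CPM in Tfh5, 64.8 ± 11.4 CPM in TfhA and 57.0 ± 5.65 CPM in Th1. The other 6 members overlap no annotated gene.

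Markers of B cells and myeloid cells, which can also carry these molecules, differed between the groups and are set beside the results for Btla, Cd200 and Cd274 and for the ligands Cd80, Cd86 and Icosl described further on. The 10 B cell markers summed to 0.971 to 3.05 CPM in Tfh5, 22.2 to 32.6 CPM in TfhA and 27.3 to 35.5 CPM in Th1, of which Ebf1 alone gave 0.526 ± 0.442 CPM in Tfh5, 17.2 ± 4.45 CPM in TfhA and 29.3 ± 3.64 CPM in Th1. Of the 6 that could be tested, 5 fell and none rose in Tfh5 relative to TfhA. Over all tested genes, 30.1% fell and 27.4% rose in that comparison. The 16 markers of monocytes, macrophages and dendritic cells summed to 15.04 to 21.2 CPM in Tfh5, 69.3 to 130.5 CPM in TfhA and 249 to 313 CPM in Th1, mostly Cd74 and H2-Ab1, and 5 of the 7 tested fell in Tfh5 relative to TfhA while 1 rose. Adgre1, Clec9a and Siglech had 0 counts in all libraries, and Lyz2 had 1 count, in Th1. The 6 markers of CD8 T and NK cells summed to 9.40 to 24.3 CPM in Tfh5, 9.98 to 24.0 CPM in TfhA and 14.1 to 35.9 CPM in Th1. The part of other cells in these results was not tested.

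**Figure D2:**
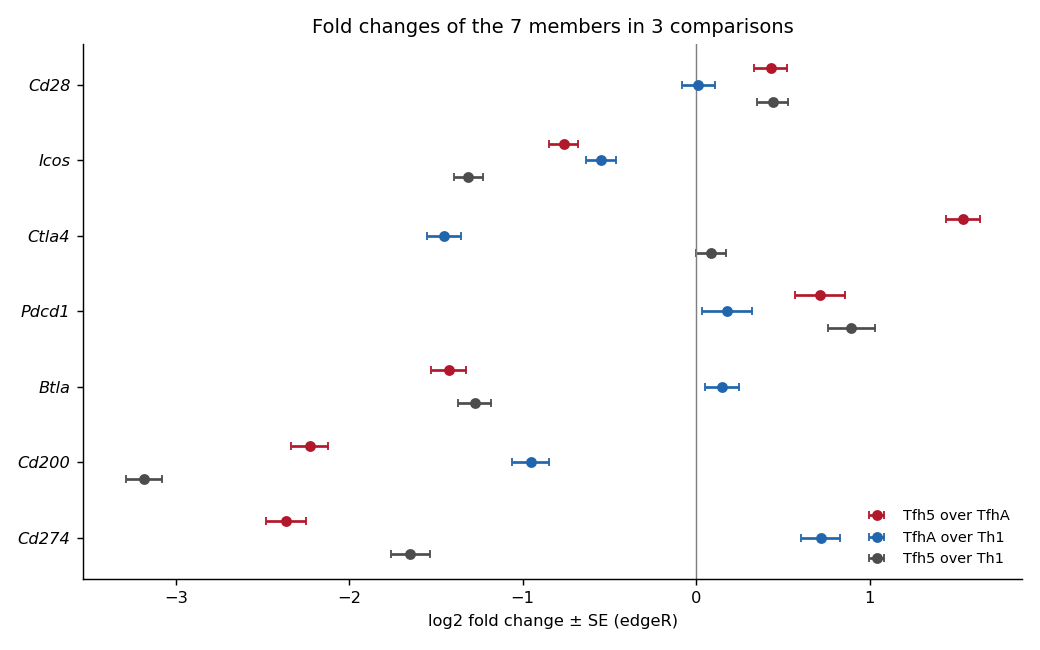
The plot gives log2 fold changes (x axis, ± SE from the edgeR fit) of the 7 members (y axis) for Tfh5 over TfhA, TfhA over Th1 and Tfh5 over Th1. Ctla4 lies at 1.54 for Tfh5 over TfhA and at -1.45 for TfhA over Th1, while Icos and Cd200 lie under 0 in all 3 comparisons.

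Ratios of counts within 1 library do not depend on the scaling between libraries, and they are given here as a description with no test. The log2 ratio of Ctla4 to Cd28 counts averaged -1.36 ± 0.09 in Tfh5, -2.47 ± 0.06 in TfhA and -1.001 ± 0.105 in Th1. The log2 ratio of Icos to Cd28 counts averaged -2.14 ± 0.12 in Tfh5, -0.95 ± 0.16 in TfhA and -0.39 ± 0.08 in Th1. Set against each other, the log2 ratio of Ctla4 to Icos counts was 0.59 to 0.94 in Tfh5 libraries, -1.64 to -1.40 in TfhA libraries and -0.72 to -0.47 in Th1 libraries. The ratio was thus highest in Tfh5 and lowest in TfhA. Counts are not corrected for gene length, so the sign of the ratio does not rank Ctla4 against Icos. Among the ratios to Cd28, the widest spread between group means was that of Cd200, with -3.75 ± 0.24 in Tfh5, -1.09 ± 0.08 in TfhA and -0.11 ± 0.11 in Th1. The log2 ratio of Cd274 to Cd28 averaged -5.94 ± 0.20 in Tfh5, -3.14 ± 0.08 in TfhA and -3.84 ± 0.06 in Th1, and that of Btla to Cd28 averaged -2.31 ± 0.19, -0.45 ± 0.09 and -0.59 ± 0.02 in the same groups. For Pdcd1 over Cd28 the groups overlapped, at -4.996 to -4.26 in Tfh5, -5.45 to -4.52 in TfhA and -5.49 to -4.64 in Th1.

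**Figure D3:**
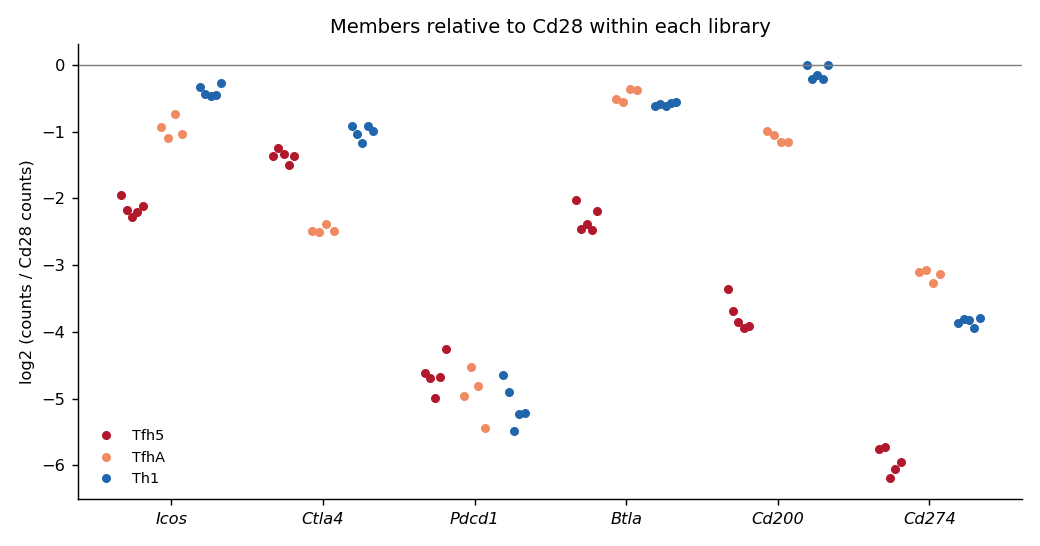
Points are libraries of Tfh5, TfhA and Th1, and the y axis is the log2 ratio of a member's counts to Cd28 counts in the same library. The groups stand apart for Icos, Ctla4, Cd200 and Cd274, narrowly so for TfhA and Th1 in Btla, and overlap for Pdcd1, which ran from -5.49 to -4.26 over all libraries.

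To compare levels between genes, CPM were divided by the length of all annotated exons in kilobases, or by the longest RefSeq-matched transcript. In Tfh5, Ctla4 (276 ± 26.6 CPM per kilobase of exon) and Cd28 (270 ± 16.1) were the 2 highest and did not differ beyond their SD. They were followed by Icos (109 ± 3.74) and Btla (98.3 ± 7.76), then by Cd200 (37.2 ± 4.93) and Pdcd1 (34.5 ± 5.97), which were close to each other, and last by Cd274 (7.47 ± 0.971). In TfhA the order was Btla (264 ± 36.3 CPM per kilobase of exon), Cd28 (200 ± 22.7), Icos (185 ± 15.9), Cd200 (174 ± 21.4), Ctla4 (95.1 ± 8.86), Cd274 (38.4 ± 5.68) and Pdcd1 (20.9 ± 4.34), where Icos lay within its SD of both Cd28 and Cd200. In Th1 Cd200 was first (337 ± 22.4 CPM per kilobase of exon), ahead of Icos (270 ± 19.2), Ctla4 (260 ± 20.05), Btla (238 ± 22.9) and Cd28 (198 ± 18.2), with Cd274 (23.4 ± 2.35) and Pdcd1 (18.5 ± 2.91) far under them. The order among the 5 higher genes depended on the length used: per kilobase of RefSeq transcript, Cd28 reached 380 ± 22.7 in Tfh5, ahead of Ctla4 at 333 ± 32.1, and 282 ± 32.0 in TfhA, ahead of Btla at 276 ± 38.0. On that length Cd200 was again first in Th1 (477 ± 31.7), where Ctla4 (314 ± 24.2) was ahead of Icos (286 ± 20.3). Pdcd1 and Cd274 were again the lowest 2 in every group, with Cd200 next in Tfh5 (52.6 ± 6.98).

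In Tfh5 relative to TfhA, members that lie side by side in the genome differed in direction in one cluster and not in another. Cd28, Ctla4 and Icos are consecutive coding genes on the plus strand of chromosome 1, with 135666 bases between Cd28 and Ctla4 and 44941 bases between Ctla4 and Icos. In Tfh5 relative to TfhA the first and second of them rose and Icos fell. Btla and Cd200 are consecutive on chromosome 16, 129216 bases apart on opposite strands, and both fell there, as did 30.1% of all tested genes. In TfhA relative to Th1, Cd200 fell (log2 fold change -0.95, edgeR adjusted p = 6.08e-08) and Btla did not pass (0.15, adjusted p = 0.235). Cd274 lies 22824 bases from Pdcd1lg2, which encodes PD-L2, the second ligand of PD-1. Pdcd1lg2 fell 3.33-fold in Tfh5 relative to TfhA, with 28.4 ± 7.02 CPM in Tfh5 and 94.8 ± 11.3 CPM in TfhA (edgeR adjusted p = 5.85e-11). Between TfhA and Th1, where Cd274 rose, Pdcd1lg2 had a log2 fold change of 0.09 ± 0.13 SE (adjusted p = 0.622).

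The partner genes were 11 ligands, receptors and relatives of the members, all reported whatever their values. The list was drawn up with earlier results of these data known. Of the 9 that could be tested, 3 rose, 5 fell and 1 did not pass in Tfh5 relative to TfhA, with a median log2 fold change of -1.42 beside -0.01 over all tested genes. In TfhA relative to Th1, 3 rose, 2 fell and 4 did not pass (median 0.09, against 0.03 over all genes), and in Tfh5 relative to Th1, 5 rose and 4 fell (median 1.12, against -0.01 over all genes). Of all tested genes, 57.5%, 44.8% and 64.6% passed in these comparisons, in the same order. With 9 genes the counts alone say little. Vtcn1 had 0 counts in all libraries and Cd276 had 0 counts in Tfh5, 2 in TfhA and 1 in Th1, and neither was tested.

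The ligands that CD28 and CTLA-4 share moved in opposite directions in Tfh5 relative to both other groups, and both fell in TfhA relative to Th1. Cd80 had 9.14, 18.4, 11.8, 10.1 and 16.1 CPM in Tfh5, against 36.4, 29.4, 37.6 and 37.6 CPM in TfhA and 80.1, 101, 91.4, 100.2 and 109 CPM in Th1. Cd86 had 51.0, 35.6, 64.0, 47.1 and 44.8 CPM in Tfh5, against 2.35, 1.45, 1.95 and 2.97 CPM in TfhA and 12.0, 14.6, 13.7, 16.7 and 19.4 CPM in Th1. The groups were fully separate for both genes, with Cd80 lowest and Cd86 highest in Tfh5, and TfhA lowest for Cd86. Cd80 fell 2.68-fold in Tfh5 relative to TfhA (edgeR adjusted p = 3.20e-08) and 7.34-fold relative to Th1 (adjusted p = 1.82e-14). Cd86 rose 22.3-fold in Tfh5 relative to TfhA (adjusted p = 7.15e-15) and 3.18-fold relative to Th1 (adjusted p = 1.21e-09), and it fell 7.01-fold in TfhA relative to Th1 (adjusted p = 1.54e-10). Cd80 fell 2.74-fold in TfhA relative to Th1 (edgeR adjusted p = 2.79e-08). The log2 ratio of Cd86 to Cd80 counts within a library averaged 1.91 ± 0.67 in Tfh5, -4.06 ± 0.31 in TfhA and -2.67 ± 0.13 in Th1.

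Icosl, the ligand of ICOS, was nearly absent from Tfh5. It had 8 counts over the 5 Tfh5 libraries (0 to 0.472 CPM), against 9.66 to 14.9 CPM in TfhA and 8.76 to 14.1 CPM in Th1. Icosl fell in Tfh5 relative to TfhA with a log2 fold change of -6.31 ± 0.39 SE (edgeR adjusted p = 6.24e-13). Without Tfh5 replicate 3, which held most of these counts, the value was -7.31, and relative to Th1 it was -6.30, or -7.31 without that library. Both ICOS and its ligand thus had less transcript in Tfh5 than in either other group.

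The partners of BTLA moved in both directions. Tnfrsf14, which encodes HVEM, the receptor that BTLA and CD160 bind, rose 2.76-fold in Tfh5 relative to TfhA, with 32.7 ± 5.34 CPM in Tfh5 and 11.9 ± 2.85 CPM in TfhA (edgeR adjusted p = 5.71e-08). Tnfsf14, which encodes LIGHT, another ligand of HVEM, fell 3.77-fold, with 3.98 ± 0.456 CPM in Tfh5 and 15.1 ± 4.41 CPM in TfhA (adjusted p = 9.65e-09). Cd160 peaked in TfhA, at 1.73 ± 0.346 CPM in Tfh5, 9.92 ± 1.07 CPM in TfhA and 0.692 ± 0.376 CPM in Th1, and it passed in all 3 comparisons. Cd200r1, the receptor of CD200, was a low transcript at 3.12 ± 1.03 CPM in Tfh5, 1.94 ± 0.502 CPM in TfhA and 0.631 ± 0.309 CPM in Th1. It rose in both follicular helper cultures relative to Th1 (adjusted p = 1.09e-05 for Tfh5 and 0.00287 for TfhA) and did not pass between them (adjusted p = 0.109). Vsir, the B7 relative VISTA, was graded, with 196 ± 19.0 CPM in Tfh5, 131 ± 17.1 CPM in TfhA and 58.1 ± 7.498 CPM in Th1, and passed in all 3 comparisons.

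**Figure D4:**
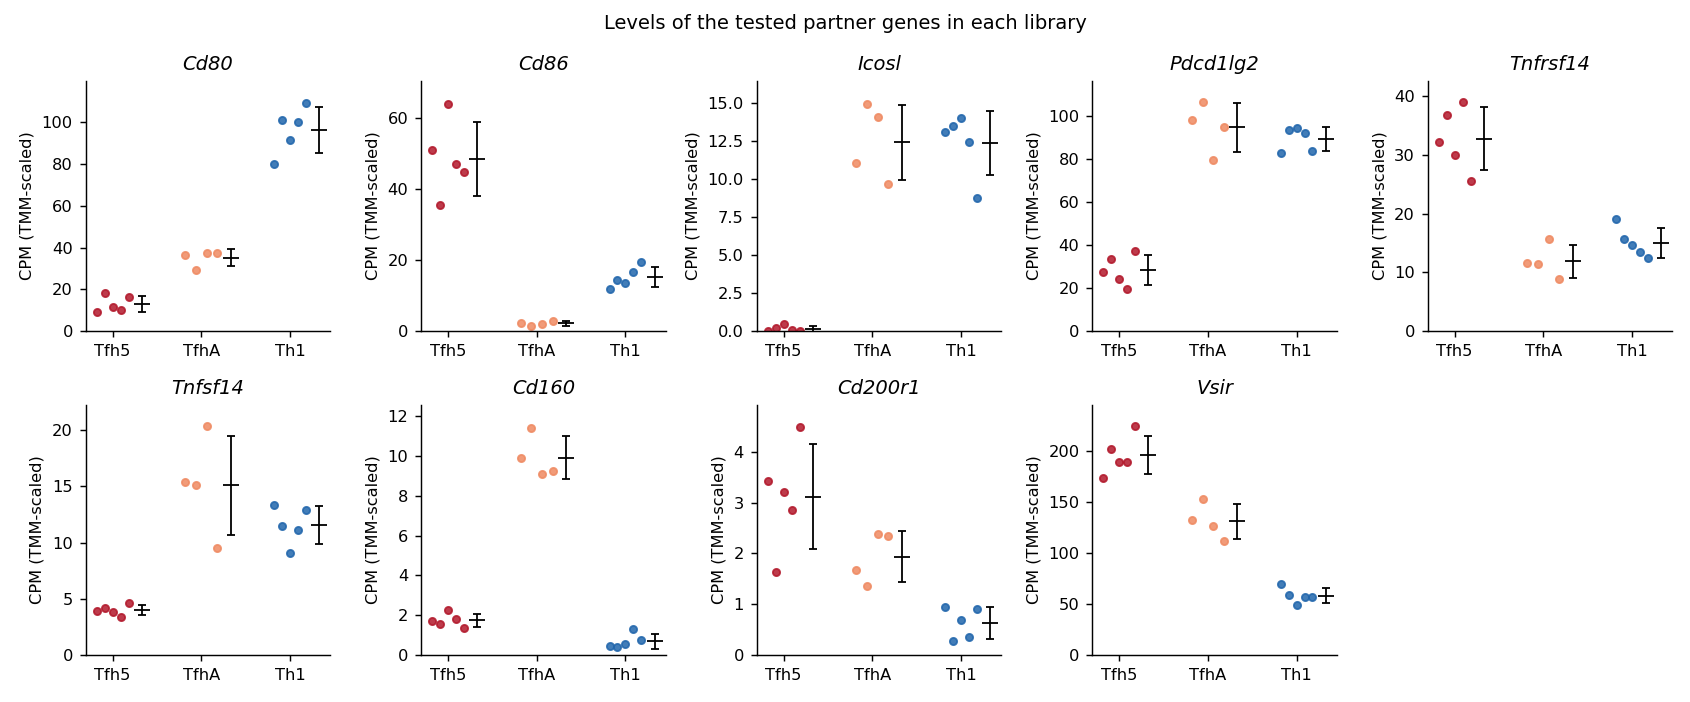
Each panel plots 1 of the 9 tested partner genes, with CPM (linear, from 0) on the y axis and libraries of Tfh5, TfhA and Th1 as points with the mean ± SD beside them. Cd86 was highest in Tfh5 and lowest in TfhA, Cd80 was lowest in Tfh5 and highest in Th1, and Icosl lay between 0 and 0.472 CPM in Tfh5.

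The counts for the signalling genes downstream of the receptors stand beside the shares of all tested genes that passed, which were 27.4% higher and 30.1% lower in Tfh5 relative to TfhA, 23.2% and 21.6% in TfhA relative to Th1, and 31.5% and 33.0% in Tfh5 relative to Th1. Of 22 genes of proximal signalling, 12 rose, 4 fell and 6 did not pass in Tfh5 relative to TfhA (median log2 fold change 0.31, against -0.01 over all tested genes). In TfhA relative to Th1, 10 rose and 3 fell (median 0.17), and in Tfh5 relative to Th1, 15 rose and 3 fell (median 0.65). Malt1, the protease that links CD28 and antigen receptor signals to NF-κB, rose 2.63-fold in Tfh5 relative to TfhA, with 1373 ± 27.2 CPM in Tfh5 and 522 ± 43.5 CPM in TfhA (edgeR adjusted p = 6.46e-12). Pik3r1, the regulatory subunit of phosphoinositide 3-kinase that binds CD28 and ICOS, rose 2.23-fold, and the kinase Zap70 rose 2.03-fold. In TfhA relative to Th1 the largest changes of the list were the adaptors Lcp2 (2.26-fold higher) and Lat (1.64-fold higher) and the exchange factor Vav1 (1.57-fold higher).

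Among 15 genes of inhibitory signalling, 7 rose, 2 fell and 6 did not pass in Tfh5 relative to TfhA (median log2 fold change 0.21). In TfhA relative to Th1 the counts were 6 and 5 (median 0.02), and in Tfh5 relative to Th1 they were 7 and 5 (median 0.10). Pik3ip1, a membrane inhibitor of phosphoinositide 3-kinase, had 92.7 ± 10.2 CPM in Tfh5, 26.2 ± 3.42 CPM in TfhA and 13.3 ± 2.34 CPM in Th1, and it rose 3.53-fold in Tfh5 relative to TfhA (edgeR adjusted p = 1.12e-11). Rasa1, a GTPase-activating protein for Ras, had 493 ± 28.8 CPM in Tfh5, 167 ± 33.3 CPM in TfhA and 74.8 ± 10.3 CPM in Th1. Inpp5d, which encodes the lipid phosphatase SHIP-1, rose 2.21-fold in Tfh5 relative to TfhA, and Ptpn22, a phosphatase that acts on kinases of the antigen receptor, rose 3.27-fold in Tfh5 relative to Th1. The 2 genes of this list that fell in Tfh5 relative to TfhA were Ptpn6 (1.57-fold, adjusted p = 3.74e-06) and Ptpn11 (1.28-fold, adjusted p = 0.00728), which encode SHP-1 and SHP-2, the phosphatases that PD-1 and BTLA recruit. They were named after their values were seen.

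In the list of 13 genes of receptor trafficking and of message or protein turnover, 4 rose, 5 fell and 4 did not pass in Tfh5 relative to TfhA (median log2 fold change 0.14). The counts were 3 and 1 in TfhA relative to Th1 (median 0.01) and 5 and 4 in Tfh5 relative to Th1 (median -0.04). Of all tested genes, 57.5%, 44.8% and 64.6% passed in these comparisons, in the same order, so the counts alone say little about this list. Trat1, the adaptor TRIM that assists surface transport of CTLA-4, did the opposite of Ctla4 in Tfh5 relative to TfhA: it fell 12.9-fold, with 0.981 ± 0.419 CPM in Tfh5, 12.9 ± 3.76 CPM in TfhA and 4.401 ± 1.11 CPM in Th1 (edgeR adjusted p = 8.13e-11). Rc3h2, which encodes Roquin-2, a repressor of Icos mRNA, rose 1.61-fold in Tfh5 relative to TfhA (adjusted p = 0.000561), with overlap between libraries. Its paralog Rc3h1 (Roquin-1) rose 1.92-fold in Tfh5 relative to Th1, with 204 ± 35.4 CPM in Tfh5 and 106 ± 10.1 CPM in Th1 (adjusted p = 4.60e-08). Rc3h1 also rose 1.61-fold in Tfh5 relative to TfhA (adjusted p = 1.81e-05), and Rc3h2 rose 1.69-fold in Tfh5 relative to Th1 (adjusted p = 7.88e-05). In TfhA relative to Th1, where Icos also fell, neither Rc3h1 (edgeR adjusted p = 0.0756) nor Rc3h2 (adjusted p = 0.763) passed. The part of Rc3h1 and Rc3h2 in the Icos result was not tested. Rab11a, a GTPase of recycling endosomes, rose 1.64-fold in Tfh5 relative to TfhA, and Ap1m1, a subunit of the AP-1 clathrin adaptor, fell 1.56-fold in Tfh5 relative to Th1. Cmtm6, which keeps PD-L1 at the cell surface, rose 1.24-fold in TfhA relative to Th1 (adjusted p = 0.00462), where Cd274 also rose. It also rose 1.37-fold in Tfh5 relative to Th1 (edgeR adjusted p = 2.60e-05), where Cd274 fell. Cmtm6 did not pass in Tfh5 relative to TfhA (adjusted p = 0.153), where Cd274 fell. Effects of Trat1 and Cmtm6 on the members were not tested. The call of Rab11a in TfhA relative to Th1 (1.22-fold lower, adjusted p = 0.0258) was lost without Th1 replicate 2 (0.0543), Th1 replicate 5 (0.0569), TfhA replicate 1 (0.067), TfhA replicate 2 (0.0643) or TfhA replicate 4 (0.0926).

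**Figure D5:**
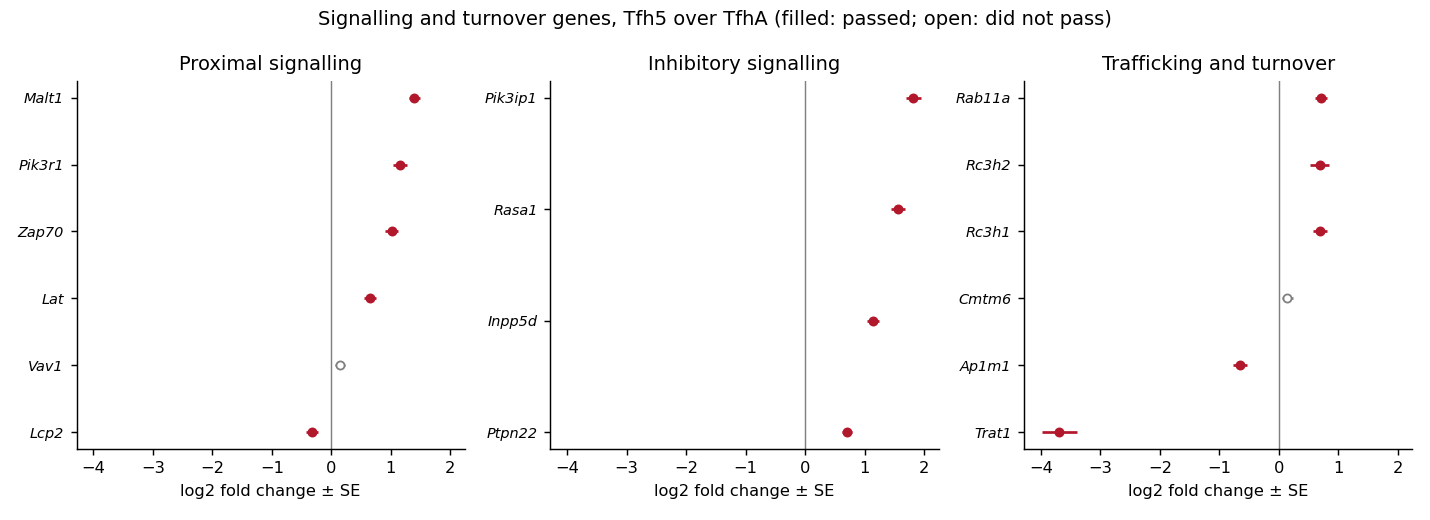
Points are log2 fold changes (x axis, ± SE) of Tfh5 over TfhA for the genes of the 3 lists that the text names for their size in any comparison (y axis, ordered by value within a list); filled points passed and open points did not. Malt1, Pik3ip1 and Rab11a are the highest in their panels, and Trat1 is far under the rest at -3.69.

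The genes most like each member were taken by Pearson correlation of log2 CPM over the 14 libraries, as a description of shape across 3 groups that differ widely, with no test. For Ctla4 they were Irf4 (r = 0.986), Abca1 (r = 0.985) and Nhsl1 (r = 0.977), all low in TfhA. Irf4, a transcription factor induced by the antigen receptor, had 2224 ± 69.6 CPM in Tfh5, 1011 ± 92.1 CPM in TfhA and 2212 ± 104 CPM in Th1. For Cd274 they were Ifih1 (r = 0.996), Plk4 (r = 0.993) and Ccnb2 (r = 0.989), all highest in TfhA. Ifih1, an interferon-induced sensor of double-stranded RNA, had 3.45 ± 1.02 CPM in Tfh5, 110 ± 13.7 CPM in TfhA and 38.8 ± 3.94 CPM in Th1. For Cd200 they were Serpinb5 (r = 0.994), Il12rb2 (r = 0.994) and Tbx21 (r = 0.993), where Il12rb2, a chain of the interleukin-12 receptor, had 46.4 ± 6.44 CPM in Tfh5, 794 ± 146 CPM in TfhA and 2365 ± 268 CPM in Th1. For Icos they were S100a10, Sco1 and Ero1a (r = 0.992 to 0.993), and for Btla they were Syce2 (r = 0.990), Slc17a6 (r = 0.987) and the chemokine gene Ccl3 (r = 0.984). The nearest to Cd28 were Zfp715 (r = 0.975), Pias1 and Dusp11 (r = 0.974 each), and the nearest to Pdcd1 were Fam189b (r = 0.953), Sbno2 (r = 0.951) and Homer3 (r = 0.949). The number of genes with r over 0.95 was 342 for Cd200 and 286 for Icos, against 2 for Pdcd1, 23 for Ctla4 and 28 for Cd28. Among the members themselves the highest correlation was between Icos and Cd200 (r = 0.982), next that of Btla with Cd274 (r = 0.964). The lowest were those of Pdcd1 with Cd200 (r = -0.883), Icos (r = -0.881) and Btla (r = -0.872). All these points share the same 14 libraries.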

How the data were processed

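The authors deposited raw counts per Entrez gene for each library, with no normalization. STAR 2.7.2b, featureCounts 1.6.4 and genome build mm10 are named in the submitters' processing notes, while the strand setting and annotation are named by no label. The table was identical to the single-library files, with 0 columns of other samples. Symbols, gene positions, neighbouring genes and promoters come from RefSeq GRCm38.p6 (25275 genes matched). Gene strands and exon lengths come from GENCODE M21, and both annotations are of the assembly that mm10 denotes. All 14 libraries entered 1 edgeR 4.0.16 fit (R 4.3.3, limma 3.58.1) of group means, with filterByExpr, TMM scaling and the quasi-likelihood F test, two-sided. P-values were adjusted by Benjamini-Hochberg over 13075 genes, and a gene passed under 0.05. The SE is the log2 fold change divided by the square root of F. The fit was tested on simulated data. Alternatives were RLE and upper-quartile scaling, DESeq2 1.42.0, limma-voom, other filters, a replicate block, fits of only the groups compared and leaving out each library. Replicates differed by more than counting error (chi-square per degree of freedom 4.30 to 32.6). Members and lists were chosen with earlier results of these data known. Named genes are the members, all partners and, per other list and comparison, up to 3 passed genes with the largest change and at least 5 CPM in a group. The 3 most similar genes of each member are coding genes with ordinary symbols. Marker lists cover CD4 T cell identity, B cells, myeloid cells (which include dendritic cells), CD8 T and NK cells, and regulatory T cells. Some genes of the lists are counted in them but not reported here by name.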

Additional observations from a re-analysis of the deposited data

Results flagged for a closer look

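Over the 34 genes named from the lists and the members, 102 groups of 4 or 5 libraries were examined for a library that stands apart from the rest of its group, and 5 were found; chance gives about 1 in 20. One of them concerns a member: Btla had 672.9 CPM in Th1 replicate 1, under the 818.3 to 861.4 CPM of the other 4 Th1 libraries and still above all Tfh5 libraries. Among the partners, Cd80 had 29.35 CPM in TfhA replicate 2, against 36.44 to 37.57 CPM in the other 3 TfhA libraries. Pik3ip1 had 110.4 CPM in Tfh5 replicate 1, against 84.82 to 91.11 CPM in the other Tfh5 libraries. Cmtm6 had 129.9 CPM in TfhA replicate 4, against 145.1 to 147.5 CPM, and Ap1m1 had 124 CPM in Th1 replicate 1, against 88.26 to 93 CPM, in the other libraries of their groups.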

How the results depend on the processing

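Under 22 alternatives to the reported fit, every one of the 7 members kept its direction where it had passed and its side of the threshold, in all 3 comparisons (462 of 462 values). The log2 fold change of Cd28 in Tfh5 relative to TfhA ran from 0.37 to 0.51 and that of Pdcd1 from 0.61 to 0.87, the members with the smallest changes there, with highest adjusted p-values of 0.00263 and 0.000971. The number of members that passed stayed at 7, 4 and 6, and the number of all genes that passed stayed within 1.5 times the reported number. Of 1782 values for the 27 other named genes, 1773 kept their side of the threshold, 5 lost it, all for Rab11a in TfhA relative to Th1, and 4 gained it, each without 1 library: Tnfrsf14 in TfhA relative to Th1 without TfhA replicate 4 (log2 fold change -0.50, edgeR adjusted p = 0.0224), Tnfsf14 there without TfhA replicate 5 (0.54, adjusted p = 0.0164), Rc3h1 there without Tfh5 replicate 1 (0.25, adjusted p = 0.0316) and Cmtm6 in Tfh5 relative to TfhA without Tfh5 replicate 1 (0.19, adjusted p = 0.0481). No value that had passed changed sign. Among those that had not, the sign changed under some alternatives for Cd28, Icosl, Ap1m1 and Rc3h2, all in TfhA relative to Th1. Same-numbered libraries were little alike in their deviations from the group means: the correlation ran from -0.048 to 0.155 over 13 pairs. A library correlated best with its own number in 8 of 26 cases. These values cannot tell if libraries with the same number share a mouse or a culture, and the labels do not say. With the replicate number as a block, 7258, 5521 and 8285 genes passed in Tfh5 relative to TfhA, TfhA relative to Th1 and Tfh5 relative to Th1, against 7520, 5852 and 8440 without it. Depth limits what can be said of Icosl in Tfh5 (8 counts), Cd276 and Vtcn1.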

Other observations

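Among the regulatory T cell markers, Gpr83 had 10.0 ± 2.84 CPM in Tfh5, 22.4 ± 7.86 CPM in TfhA and 2.62 ± 0.870 CPM in Th1, and Nrp1 had 59.0 ± 7.63 CPM in Tfh5, 120 ± 7.58 CPM in TfhA and 58.2 ± 1.92 CPM in Th1. Ikzf4 went the other way, with 27.3 ± 2.86 CPM in Tfh5, 20.01 ± 5.31 CPM in TfhA and 71.0 ± 9.37 CPM in Th1, and it rose in Tfh5 relative to TfhA (edgeR adjusted p = 0.0108) and fell in TfhA relative to Th1 (adjusted p = 2.50e-10). Lrrc32 had 6.75 ± 2.26 CPM in Tfh5, 36.0 ± 7.11 CPM in TfhA and 22.5 ± 4.37 CPM in Th1, and Ikzf2 had 5.30 ± 1.61 CPM in Tfh5, 9.92 ± 2.65 CPM in TfhA and 8.69 ± 1.19 CPM in Th1. In TfhA relative to Th1, 3 of the 6 markers rose, 1 fell and 2 did not pass, beside 23.2% higher and 21.6% lower over all tested genes. Of the 9 genes of CD4 T cell identity, 3 rose and 2 fell in Tfh5 relative to TfhA, beside 27.4% higher and 30.1% lower over all tested genes. Cd4 was 1.37-fold higher and Thy1 1.54-fold lower there. These genes were named after their values were seen.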
